A study of Mus musculus with 26 samples.

Results

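The transcriptome of the wild-type (WT) testis was compared with that of the WT epididymis. The 13 libraries, of 26 in the series, came from the testis (3 samples), the initial segment of the epididymis (IS, 5 samples) and the caput epididymidis (5 samples) of mice of the C57Bl/6N; 129 hybrid strain at 3 months of age. Members were taken from the sample labels alone. The other 13 libraries came from ArKI mice, a knock-in genotype compared with WT in the study, and they serve here only as a second set with the same tissues and numbers. All 23337 genes named in both count tables entered, and 16402 of them passed a filter on low counts and were tested. The testis samples were sequenced in one run and all epididymal samples in another, which means that a difference between tissues and one between runs cannot be told apart. For that reason only large differences are described, and a gene was called higher or lower in the testis where it differed more than 4-fold from the mean of the IS and caput groups at an FDR below 0.01 in edgeR's quasi-likelihood test.

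The testis makes sperm and androgens. Spermatogonia divide in the seminiferous tubules, enter meiosis as spermatocytes, and mature as haploid spermatids that pack their DNA with protamines and build an acrosome and a tail, in the care of Sertoli cells, while Leydig cells between the tubules turn cholesterol into testosterone. Sperm leave the testis unable to fertilise and pass through the epididymis, first the IS and then the caput, where a secretory epithelium under control of androgens and of factors in testicular fluid coats them with lipocalins, beta-defensins, protease inhibitors and enzymes. Whole tissue was sequenced, so fewer cells of a type and less RNA per cell cannot be told apart in any value below.

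Total counts ran from 7121937 to 9770625 per IS library, from 8435665 to 9755329 per caput library and from 14077013 to 16451357 per testis library. Levels are given as CPM, counts scaled to a common library size with TMM factors, and differences as log2 of testis over epididymis with their standard error (SE). A few genes dominated the epididymis: the 10 most counted genes took 13.1 to 14.03% of the counts of an IS library and 14.9 to 16.3% of a caput library, against 3.11 to 3.38% in the testis. Caput samples 3 and 4 stood apart. They carried more counts than the other caput samples of some genes that were high in the IS, such as Lcn8, Lcn9, Defb48, Teddm1 and Adam28, but not of others, such as Crisp1, Foxj1 and Spag6. Adam28, a disintegrin and metalloprotease gene, gave 7.98, 20.4, 219.5, 211 and 79.2 CPM in caput samples 1 to 5 against 4449 to 5135 CPM in the IS. Without these samples the comparison called 4564 genes higher and 3077 lower.

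Of the 16402 tested genes, 4653 (28.4%) were higher and 2952 (18%) were lower in the testis. All 3 testis samples lay above all 10 epididymal samples for 7292 genes (44.5%) and below them for 5967 (36.4%). Such separation held for 4624 of the genes called higher and 2806 of those called lower. Genes called higher took 60.0 to 61.9% of all counts in a testis library and 4.68 to 4.87% in an IS library, and genes called lower took 1.97 to 2.19% in the testis and 46.6 to 48.5% in the caput. Against each segment separately, 4304 of the genes called higher (92.5%) and 2311 of those called lower (78.3%) were called again. The balance of the directions depended on scaling. TMM factors, which allow for a few genes taking many counts, gave 61.2% of calls as higher, with a median log2 difference of 0.17 over all tested genes. Upper-quartile factors gave 4105 higher and 3953 lower genes, or 50.9% higher, and moved that median by -0.49.

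**Figure D1:**
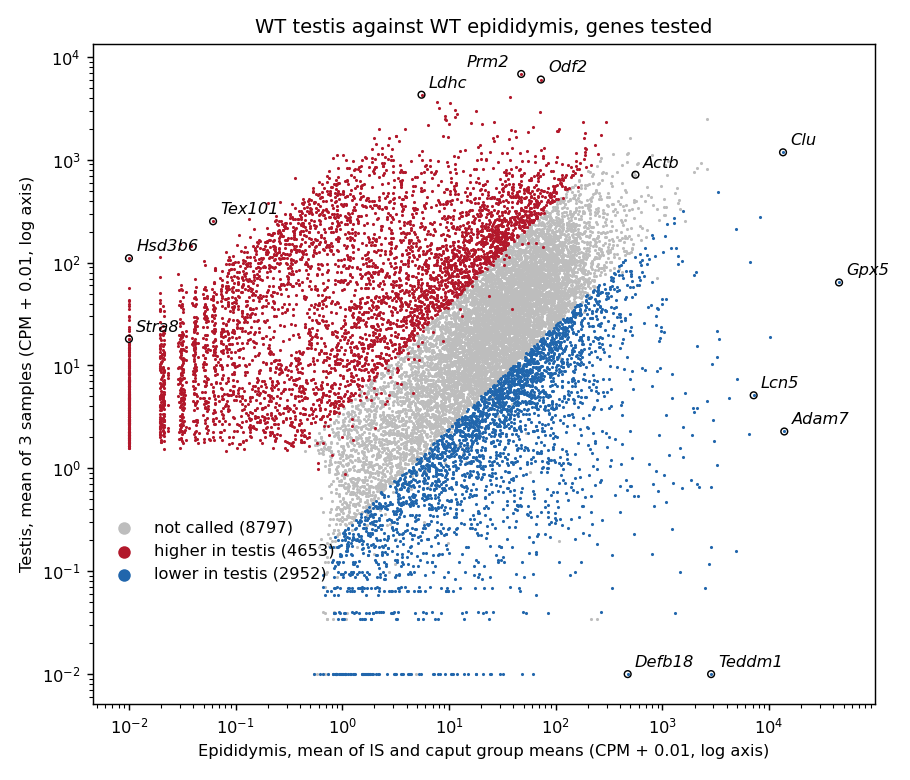
Mean CPM of each tested gene in the WT epididymis (horizontal, mean of the IS and caput group means) and in the WT testis (vertical, mean of 3 samples), each with 0.01 added and on a log axis. Red points are the 4653 genes called higher in the testis, blue points the 2952 called lower and grey points the rest, and ringed genes are named in the text. Hsd3b6 and Stra8 sit at 0 counts in the epididymis, and Defb18 and Teddm1 at 0 in the testis.

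The caput and IS were also compared, inside one run. Both are segments of 1 organ, so this cannot gauge how much of the testis contrast stems from the run. Between the caput and the IS, 812 genes (4.95%) were called higher and 623 (3.8%) lower in the caput at the same thresholds. More than 16-fold differences were 178 and 176 there, against 2959 and 879 between testis and epididymis. The same tissue contrast in the 13 ArKI samples, which share no sample with the WT set but have the same split into runs, called 4529 of 16508 genes higher (27.4%) and 2919 lower (17.7%). Of the genes called higher in WT, 93.5% were called higher in ArKI, and 96.0% the other way round. For genes called lower the shares were 87.5% and 88.5%. Only 1 gene, Nkx6-1 (chosen after its values were seen), was called in opposite directions, and 1169 of 16879 genes (6.93%) had a tissue difference that itself differed between genotypes at an FDR below 0.01. These were 804 with a more positive and 365 with a more negative difference in ArKI, and 516 and 215 with the replicate number as a block.

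Prm2, which encodes protamine 2, the protein that replaces histones in the sperm head, took more counts than any other gene called higher. Its level was 5974, 7545 and 6914 CPM in the 3 testis samples, 9.39, 8.54, 21.4, 3.41 and 19.9 CPM in the 5 IS samples and 71.7, 67.98, 124, 69.6 and 78.9 CPM in the 5 caput samples. No testis sample came near an epididymal one, and the log2 difference was 7.72 (SE 0.35). Odf2, a protein of the outer dense fibres and of centrosomes, had 6013 ± 239 CPM (SD, n = 3) in the testis and 64.9 ± 3.88 CPM and 80.3 ± 9.24 CPM in the IS and caput, a difference of 6.38 (SE 0.07). Ldhc, the lactate dehydrogenase of germ cells, reached 4280.2 ± 280.3 CPM against 2.70 ± 2.42 CPM and 8.32 ± 1.44 CPM. The next genes by testis counts were Akap12, a scaffold for protein kinase A (log2 6.78, SE 0.21), Atp8b3, a phospholipid flippase of the acrosome (log2 9.24, SE 0.30), Fhl4, a LIM-domain protein of the testis (log2 8.82, SE 0.19), Tnp2, a transition protein (log2 8.90, SE 0.30), Tcp11 (log2 8.38, SE 0.22), Phf7, a histone reader of spermatids (log2 7.43, SE 0.07), and hexokinase Hk1 (log2 5.37, SE 0.05). For each of these 10 genes the lowest testis sample lay above the highest epididymal sample.

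In the other direction stood Gpx5, the secreted glutathione peroxidase of the epididymis that guards sperm against peroxides. It gave 45432, 38648, 37465, 41494 and 41733 CPM in the IS samples and 40596, 53732, 48977, 56908 and 47156 CPM in the caput samples, but 68.1, 62.01 and 62.1 CPM in the testis, a log2 difference of -9.46 (SE 0.14). The groups were far apart, with no overlap. Adam7, a sperm-surface protein secreted by the epididymis, had 14422 ± 282 CPM and 13319 ± 1092 CPM in the IS and caput and 2.27 ± 0.561 CPM in the testis (log2 -12.58, SE 0.15). Spag11b, an androgen-dependent gene of the beta-defensin family that shares sequence with its neighbour Spag11a, had 9347 ± 792 CPM, 11225 ± 1773 CPM and 18.9 ± 1.68 CPM (log2 -9.08, SE 0.17). Itm2b, a membrane protein gene expressed in many tissues, differed less, by -4.79 (SE 0.07). Mfge8, a milk-fat globule protein that binds sperm, differed by -5.55 (SE 0.38), and Rnase10, an epididymal member of the ribonuclease family, by -8.40 (SE 0.80). Clusterin (Clu), a secreted chaperone, was called lower only through the caput: the caput had 26028 ± 1948 CPM and the testis 1180.1 ± 34.2 CPM, while the IS had 963 ± 267 CPM, within a log2 of 0.29 of the testis. Its call was lost with DESeq2 or with RLE factors (log2 -1.97 with each).

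Where no read at all was counted in one tissue, only a lower bound of the fold can be given, from the level that 3 counts over the whole group would make (0.0323 CPM over the 10 epididymal and 0.0828 CPM over the 3 testis samples, counting error only). Hsd3b6, a 3-beta-hydroxysteroid dehydrogenase of Leydig cells, gave 129, 77.3 and 124 CPM in the testis and 0 counts in all 10 epididymal samples, at least 3415-fold higher. Its relative Hsd3b1 gave 79.4, 92.02 and 47.01 CPM and 1 count in 1 IS sample, a ratio of 6786 (95% exact interval 1217 to 268133), and both values are uncertain because reads shared by near-identical copies were not counted. Nr5a1 (steroidogenic factor 1), the master regulator of steroid cells, was at least 1741-fold higher, Aqp8, a water channel, at least 1228-fold, Gml at least 1347-fold and Tex19.2, a germ-cell gene, at least 1312-fold. Tex101, a germ-cell surface protein needed for sperm migration, had 242, 268 and 246 CPM against at most 0.203 CPM in any epididymal sample. It had 0 counts in all 5 IS samples and at most 2 in a caput sample. Its log2 of 12.68 (SE 0.12) is therefore uncertain in size. The genes Akr1cl, Serpina5 and 1700006A11Rik had 150.1 ± 25.4 CPM, 113 ± 10.5 CPM and 144 ± 3.90 CPM in the testis and 1 to 3 counts in the whole epididymis.

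Teddm1, an epididymal membrane protein gene, led the opposite list with 4914 to 5509 CPM across the IS, 154 to 1057 CPM across the caput and 0 counts in all 3 testis samples, at least 34532-fold lower in the testis. Defb18, a beta-defensin, was also at 0 in the testis and at least 5707-fold lower. Lcn10 had 1 count in the testis, a ratio of epididymis over testis of 46896 (95% exact interval 8417 to 1852320.0). These intervals, like the bounds, cover counting error only, and replicates differed by more than that. For Crisp4, an epididymal secretory protein, the ratio was 6027 (95% exact interval 1668 to 49773), and for Gm5531 17861 (95% exact interval 6112 to 86609.6). The remaining leaders, Lcn9, Adam28, Defb48 and 5830403L16Rik, were genes of the IS, with 9411 ± 333 CPM, 4892 ± 299 CPM, 5363 ± 701 CPM and 5555 ± 236 CPM there and at most 0.269 CPM in any testis sample. These genes varied between caput samples. Limma on voom values gave them adjusted p values of 0.038, 0.053, 0.097 and 0.049 in that order and did not call them, nor Lcn8 or Crisp1 (adjusted p = 0.0103 and 0.059).

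**Figure D2:**
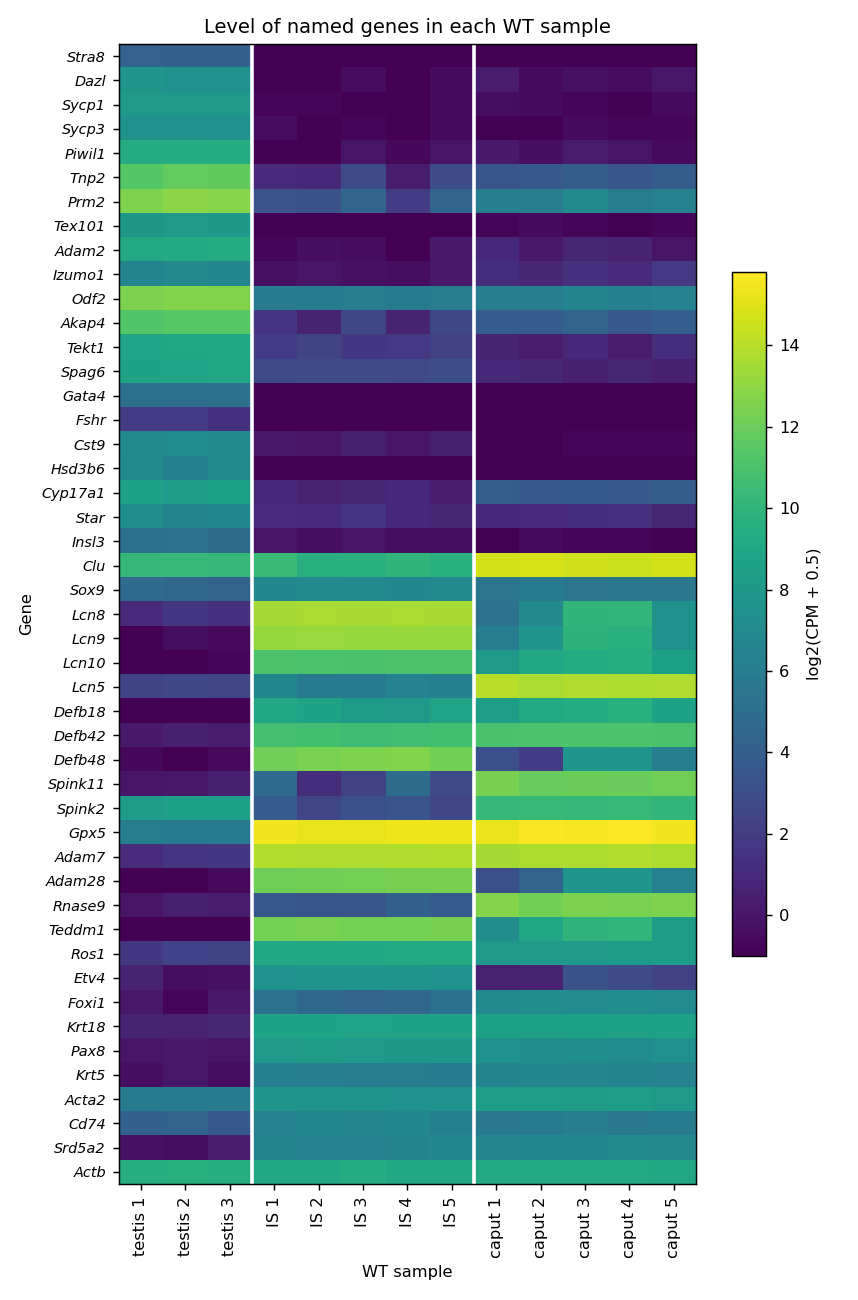
Level of 47 genes (rows) in each of the 13 WT samples (columns, testis, IS and caput parted by white lines), as log2(CPM + 0.5) on the colour scale. Germ-cell, Sertoli and Leydig genes are bright in the 3 testis columns, epididymal genes in the IS or the caput or both, and caput samples 3 and 4 are brighter than the other caput samples for Lcn8, Lcn9, Defb48, Adam28 and Teddm1.

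Lactate dehydrogenase, which interconverts pyruvate and lactate, gave a pair of related genes in 1 locus. Ldha and Ldhc start 15.5 kb apart on chromosome 7. Ldhc had 4011, 4571 and 4258 CPM in the testis, 1.79, 0.738, 5.41, 0.393 and 5.18 CPM in the IS and 9.31, 6.48, 10.2, 7.70 and 7.93 CPM in the caput, a difference of 9.79 (SE 0.31). Ldha, the form of muscle and most other tissues, was also called higher, with 899.9, 959 and 944 CPM in the testis, 55.2, 52.7, 56.1, 47.9 and 61.3 CPM in the IS and 114, 114, 117, 109 and 118 CPM in the caput (log2 3.56, SE 0.05). Per kilobase of exon the testis level was 2709 CPM for Ldhc and 282 CPM for Ldha, against 5.27 and 34.6 in the caput, so that Ldhc stood above Ldha in the testis and below it in the caput.

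The 100 bases before the start of these neighbours are shown because they belong to one family and one locus yet differ so much between tissues, and those of Prm2 and Gpx5 because they were the most counted genes of each direction. For Ldhc and for Ldha 2 starts are listed, and the most upstream was used, also for the distance above. Which start serves in each tissue was not tested. Sequences are from RefSeq (GRCm38.p6), 5′ to 3′ on the gene's strand: chr7:46861163-46861262 and chr7:46845704-46845803 on the plus strand, chr16:10792106-10792205 and chr13:21292687-21292786 on the minus strand. Capitals mark TGACG or its reverse complement, part of the cyclic AMP response element TGACGTCA.
Ldhc: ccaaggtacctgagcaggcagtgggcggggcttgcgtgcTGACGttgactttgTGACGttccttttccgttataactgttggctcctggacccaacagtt
Ldha: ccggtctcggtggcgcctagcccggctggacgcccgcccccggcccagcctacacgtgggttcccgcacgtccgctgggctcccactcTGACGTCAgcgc
Prm2: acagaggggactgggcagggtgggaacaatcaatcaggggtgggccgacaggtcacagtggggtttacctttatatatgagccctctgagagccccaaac
Gpx5: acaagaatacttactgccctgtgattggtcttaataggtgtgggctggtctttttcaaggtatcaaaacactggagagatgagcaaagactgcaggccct
Ldhc held TGACG at 2 places and Ldha the full TGACGTCA. Neither the Prm2 nor the Gpx5 stretch held these letters. Among 32851 promoters of the same length in the table, 10.5% held TGACG and 1.15% held TGACGTCA. A match of letters is a description and not a binding site. The shares were not compared between genes called higher and lower because only 78.7% of tested genes had a promoter in the table, under the 80% set for such a check. Crem, a factor that binds this element in spermatids, had 267 ± 28.7 CPM in the testis, 11.1 ± 1.11 CPM in the IS and 10.5 ± 1.29 CPM in the caput (log2 4.63, SE 0.07).

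Many enzymes and structural proteins have a germ-cell form and a form of other tissues, and 34 such pairs were laid side by side. Of the members set down here as germ-cell forms, Atp6v1b1, Ace, Gpx4 and Slc2a3 are used by other cells as well. The germ-cell member was higher in the testis in 31 pairs and the other member was lower in 13, not called in 17, higher in 3 and not tested in 1, where 28.4% of all tested genes were higher and 18% lower. In 12 pairs the germ-cell member was higher and its partner lower. The median log2 difference was 8.67 for the germ-cell members and -1.68 for the partners, beside 0.17 over all tested genes. Pyruvate dehydrogenase, which feeds the citric acid cycle, gave opposite directions. Pdha2 had 224, 248 and 231 CPM in the testis and at most 0.570 CPM in any epididymal sample (log2 10.17, SE 0.11). Pdha1 had 9.89, 9.32 and 9.72 CPM in the testis, 201 to 213 CPM across the IS and 165 to 189.5 CPM across the caput (log2 -4.30, SE 0.07). In the testis Pdha2 was above Pdha1 and in the epididymis Pdha1 was above Pdha2, also per kilobase of exon.

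Opposite directions were also seen for glycerol kinase, with 9.93 (SE 0.11) for Gykl1 and -6.73 (SE 0.10) for Gyk, and for glucose-6-phosphate dehydrogenase, the entry to the pentose phosphate pathway, with 8.32 (SE 0.16) for G6pd2 and -4.33 (SE 0.08) for G6pdx. Among ribosomal proteins, Rpl39l differed by 9.58 (SE 0.12) and Rpl39 by -4.96 (SE 0.17). Rpl10l and Rpl10 differed by 10.64 (SE 0.37) and -3.92 (SE 0.24), but Rpl10 was under 10 CPM in every sample. Rpl39 had a mean of 1.60 CPM in the testis. Reads that mapped to more than 1 place were not counted, so the values of Rpl10 and Rpl39 are uncertain. For calcineurin the regulatory subunits Ppp3r2 and Ppp3r1 gave 9.28 (SE 0.11) and -2.26 (SE 0.06), and for the proteasome Psma8, of meiotic cells, and Psma7 gave 9.73 (SE 0.13) and -2.59 (SE 0.05). Calmegin (Clgn), a chaperone of germ cells, was higher (log2 9.52, SE 0.10) while its relative calnexin (Canx) had 314 ± 11.3 CPM in the testis and 507 ± 18.4 CPM and 751 ± 35.7 CPM in the epididymis, under the 4-fold limit. Of the CAP-domain proteins, Crisp2 of the acrosome and tail had 2512 ± 169 CPM in the testis (log2 8.61, SE 0.20), and Crisp1, an epididymal protein that coats sperm, had 1924, 2145, 2175, 2154 and 1258 CPM in the IS and 849, 16.7, 381, 126 and 399 CPM in the caput against 1.33 ± 0.684 CPM (log2 -9.30, SE 1.42). The caput samples differed widely from each other for Crisp1.

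Of the germ-cell members, 3 were not called. Cstf2t, a polyadenylation factor of germ cells, was not called (log2 0.65, SE 0.06), nor was Atp6v1b1, a proton pump subunit (log2 0.69, SE 0.11). Ace, angiotensin converting enzyme, which has a form made from a start inside the gene in spermatids, had 977 ± 39.1 CPM in the testis, 219 ± 29.2 CPM in the IS and 2042 ± 186 CPM in the caput. Its testis level was therefore above that of the IS by 2.16 (SE 0.09) and had a difference of -1.06 (SE 0.09) from the caput. Gene counts do not part the forms. Some partners could not be measured: Gapdh gave 0.175 to 0.448 CPM in the testis and at most 2.27 CPM elsewhere and Pgk1 at most 4.66 CPM in any sample, levels far under those usual for these enzymes. Both have many near-identical copies in the genome, and reads that mapped to more than 1 place were not counted, so their values are uncertain. Their germ-cell relatives Gapdhs and Pgk2 had 2230.0 ± 174 CPM and 1106 ± 86.6 CPM in the testis (log2 8.29, SE 0.23 and 8.25, SE 0.16).

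**Figure D3:**
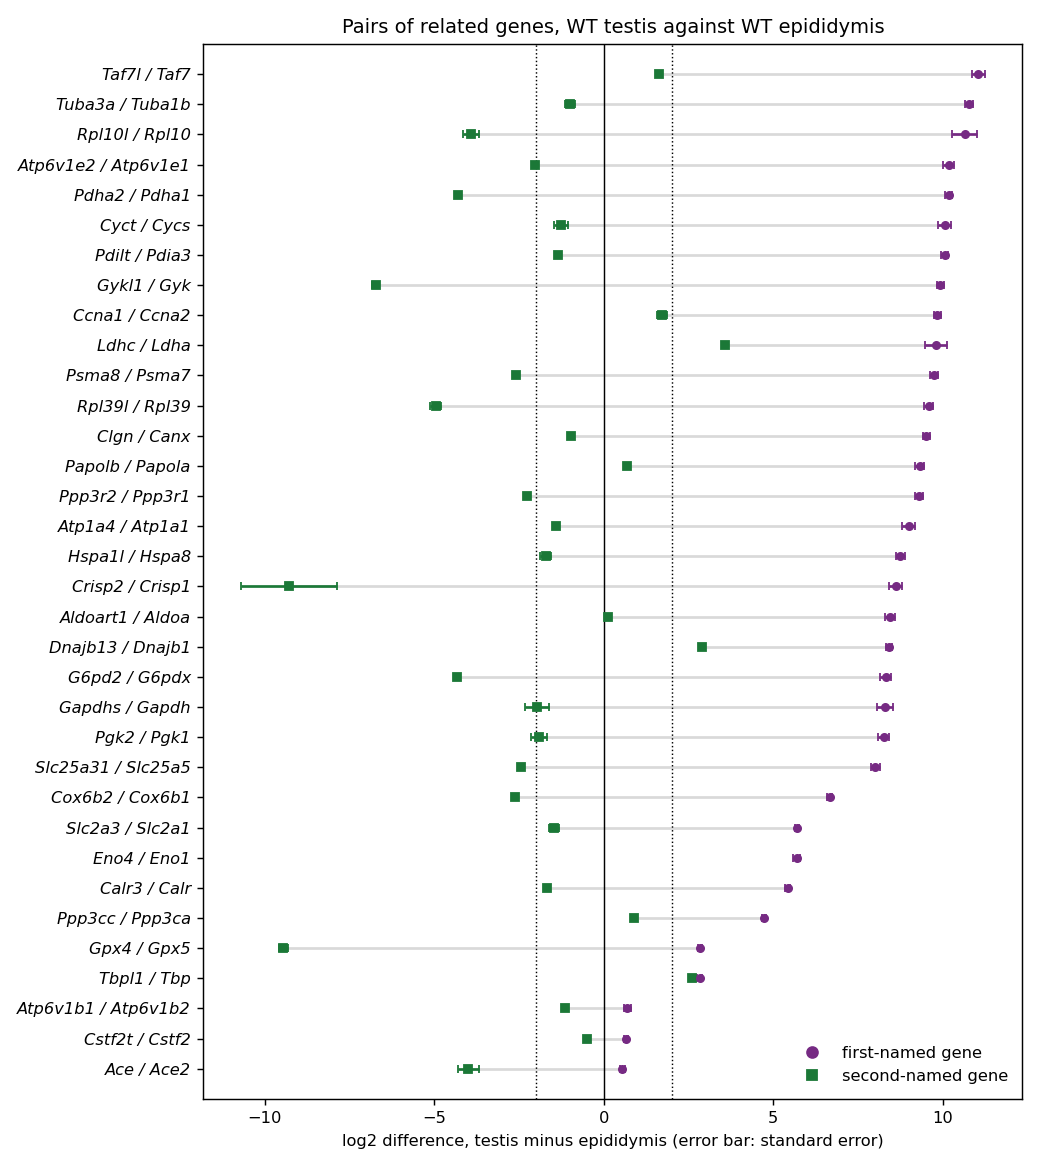
Log2 difference of testis minus epididymis (horizontal) for the 34 pairs of related genes (rows), with the germ-cell member as purple circles, its partner as green squares and the SE as bars; dotted lines mark the 4-fold limit and Eno1 was not tested. The germ-cell member lies to the right of its partner in each pair where both were tested, and 13 partners lie beyond the limit on the left.

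Position in the genome was read from the annotation, which gave a chromosome for 99.4% of tested genes. The X chromosome, which is silenced in the nuclei of spermatocytes during meiosis, held 642 tested genes, of which 222 (34.6%) were lower and 196 (30.5%) higher in the testis. On single autosomes the share lower ran from 14.4 to 21.4% and the share higher from 24.95 to 32.5%. The median log2 difference was -0.88 on the X chromosome and 0.20 over the autosomes. In 9 of the 34 pairs the partner lies on the X chromosome, and 7 of these 9 partners were lower, against 6 of the 25 with an autosomal partner. Rpl10 and Rpl39, whose values are uncertain, are among the 7. The X-linked gene Hprt, a purine salvage enzyme, had 16.3, 13.2 and 11.6 CPM in the testis, 160.1 to 188 CPM across the IS and 122 to 138 CPM across the caput (log2 -3.42, SE 0.08). Akap4, the main protein of the fibrous sheath of the sperm tail, is X-linked as well and went the other way, with 2656 ± 196 CPM against 3.17 ± 2.33 CPM and 15.2 ± 3.32 CPM (log2 8.56, SE 0.25). By type of gene, 531 of 874 long non-coding RNA genes (60.8%) and 4024 of 15277 protein-coding genes (26.3%) were higher, and 139 and 2765 were lower. Reads from a gene and an overlapping gene on the other strand may not be told apart in these counts, so single non-coding genes are not named.

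Gene lists were used to follow the germ line through its stages. Of 18 spermatogonial genes tested, 14 were higher in the testis and 2 lower, with a median log2 difference of 7.90 (7.89 with the 3 genes at 0 in the epididymis set to their bound), where all tested genes had 28.4% higher, 18% lower and a median of 0.17. Stra8, the gene that responds to retinoic acid at the entry to meiosis, had 19.04, 16.9 and 18.3 CPM in the testis and 0 counts in all epididymal samples, at least 560.0-fold higher. Dazl, an RNA-binding protein of germ cells, had 214, 195 and 191 CPM against at most 0.760 CPM, and Ddx4 (the germ-cell helicase vasa) had 789.8 ± 6.37 CPM (log2 9.90, SE 0.12 and 9.46, SE 0.09). The neuronal and spermatogonial ubiquitin hydrolase Uchl1 passed the limit only narrowly (log2 2.26, SE 0.08). The IS had 27.1 ± 3.60 CPM of it, and its call was lost with upper-quartile or library-size scaling and against the IS alone, at log2 values of 1.77, 1.86 and 1.13. Gfra1 and Ret, which together form the receptor for GDNF on stem cells, were lower in the testis. Gfra1 had 5.27, 6.09 and 5.25 CPM in the testis, 153, 119, 135, 132 and 153 CPM in the IS and 432, 530.1, 413, 439 and 501 CPM in the caput (log2 -5.51, SE 0.13). Ret was lower through the IS, with 32.7 ± 4.34 CPM there, 5.06 ± 2.42 CPM in the caput and 2.39 ± 0.434 CPM in the testis (log2 -2.42, SE 0.30), and was not called against the caput alone (log2 -1.06). Kit and Zbtb16 were not called (log2 0.36, SE 0.08 and 0.02, SE 0.14).

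Genes of meiotic prophase, in which homologous chromosomes pair and recombine, were higher for 24 of 26 members and lower for 0, with a median of 7.82. Sycp1 and Sycp3 build the synaptonemal complex that holds the homologues together. Sycp1 had 275, 257 and 269.9 CPM in the testis and at most 0.285 CPM in any epididymal sample (log2 10.95, SE 0.11), and Sycp3 had 186 ± 6.97 CPM (log2 10.73, SE 0.13). They had 12 and 9 counts in the whole epididymis, so these SE values are too small to cover counting error. The meiotic cohesin subunit Stag3 had 739 ± 28.7 CPM in the testis but also 24.1, 22.6, 18.7, 15.97 and 21.6 CPM in the caput (log2 6.66, SE 0.11). Spo11, the enzyme that cuts DNA to start recombination, had 85.3, 83.9 and 76.7 CPM in the testis, 20.01, 17.5, 18.2, 11.7 and 15.2 CPM in the IS and 1.90, 1.82, 2.17, 2.27 and 1.52 CPM in the caput (log2 3.85, SE 0.10). The IS level of Spo11 was above that of the caput in every sample. Rec8 and Prdm9, a cohesin subunit and the methyltransferase that places recombination sites, were not called. Rec8 had 142 ± 5.26 CPM in the testis against 23.4 ± 3.67 CPM and 95.3 ± 7.90 CPM (log2 1.58, SE 0.07). Prdm9 gave 0.41 (SE 0.12), and this value changed sign with upper-quartile factors.

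The piRNA pathway, in which short RNAs and PIWI proteins silence transposons in germ cells, had 17 of 19 members higher and 1 lower (median 7.90). Piwil1, the PIWI protein of pachytene spermatocytes and spermatids, had 666, 673 and 673 CPM in the testis and at most 0.758 CPM elsewhere (log2 10.95, SE 0.11), and Mael, which works beside it, had 1423 ± 56.3 CPM (log2 9.71, SE 0.13). Piwil4, which acts mainly in fetal germ cells, was lower, with 0.439, 1.34 and 0.700 CPM in the testis, 11.2, 12.2, 11.6, 10.7 and 13.4 CPM in the IS and 1.99, 2.94, 4.22, 4.08 and 2.82 CPM in the caput (log2 -2.92, SE 0.26), and was not called against the caput alone (log2 -1.97). Tdrkh was not called, at 1.59 (SE 0.07).

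In spermatids histones give way to transition proteins and then to protamines, and 13 of 13 tested genes of this process were higher (median 8.26). Prm1 had 2359, 3066 and 2942 CPM in the testis (log2 8.26, SE 0.28), Tnp1 1886, 2423 and 2201 CPM (log2 8.70, SE 0.28) and Tnp2 2688, 3500.4 and 3252 CPM. Prm1, Prm2 and Tnp2 lie in 1 cluster, with starts 4.72 and 3.45 kb apart, on chromosome 16. Brdt, a reader of acetylated histones, had 393 ± 17.9 CPM against 1.60 ± 0.275 CPM and 2.31 ± 0.665 CPM (log2 7.67, SE 0.07). Summed over the 14 listed genes, the list had 16072 to 20122 CPM in the testis, 141 to 185 CPM in the IS and 176 to 257 CPM in the caput, without overlap between testis and epididymis.

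All 22 genes tested for the acrosome and for binding to the egg were higher (median 9.26), and so were all 33 of the sperm tail (median 8.43). Acr, the protease acrosin, had 248, 289 and 264 CPM in the testis and at most 0.665 CPM in an epididymal sample (log2 9.34, SE 0.09). Adam2 and Adam3, of the sperm-surface fertilin group, had 605 ± 29.7 CPM and 1701 ± 77.7 CPM (log2 10.16, SE 0.11 and 9.26, SE 0.17). Izumo1, the sperm protein that binds the egg receptor Juno, had 93.01, 119.9 and 102 CPM, 0.262 to 0.671 CPM across the IS and 1.22 to 2.93 CPM across the caput (log2 6.81, SE 0.12). For the tail, the outer dense fibre gene Odf1 had 1425, 1813 and 1633 CPM (log2 6.75, SE 0.20), the mitochondrial capsule gene Smcp 2015, 2510.5 and 2383 CPM (log2 7.18, SE 0.23) and the dynein heavy chain Dnahc8 1967 ± 185 CPM (log2 9.92, SE 0.21). Tekt1 and Spag6, which also serve motile cilia, had 476 ± 19.3 CPM and 444 ± 18.9 CPM (log2 7.83, SE 0.08 and 7.35, SE 0.06). Summed over its genes the tail list had 26873 to 30459 CPM in the testis, 94.6 to 146 CPM in the IS and 253 to 349 CPM in the caput.

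**Figure D4:**
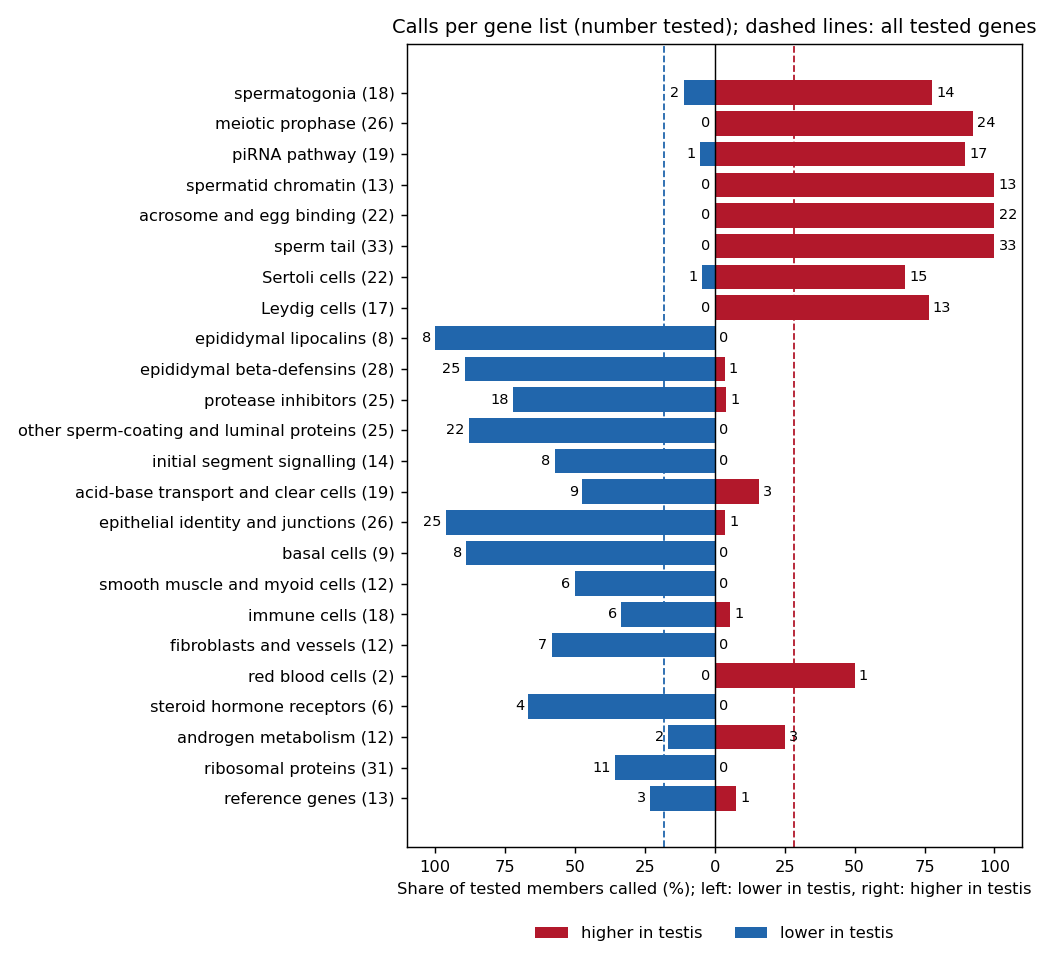
Share of tested members of each gene list (rows, number tested in brackets) called higher (red, to the right) or lower (blue, to the left) in the WT testis, in percent, with the number of genes at the end of each bar; dashed lines mark the shares over all tested genes, 28.4% and 18%. All tested members of the lists for spermatid chromatin, acrosome and sperm tail were higher and all tested lipocalins were lower.

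Both somatic cell types that define the testis were seen by their markers. Of 22 Sertoli genes 15 were higher and 1 lower (median 5.23). The transcription factor Gata4 had 36.7, 33.2 and 36.9 CPM in the testis and 0 counts in the epididymis, at least 1101-fold higher, and the FSH receptor Fshr, with 3.22, 3.05 and 2.28 CPM, at least 88.2-fold. Amhr2, the receptor for anti-Müllerian hormone, had 287 ± 23.2 CPM (log2 10.24, SE 0.12), the cystatin Cst9 134 ± 10.5 CPM (log2 9.21, SE 0.12) and Wt1 61.7 ± 5.17 CPM (log2 5.88, SE 0.14). Other Sertoli genes were counted in the epididymis too. Sox9, which sets the Sertoli fate in the embryo, had 28.7, 24.5 and 19.96 CPM in the testis, 112, 126, 126, 116 and 131 CPM in the IS and 47.9, 56.2, 47.8, 52.7 and 51.5 CPM in the caput (log2 -1.69, SE 0.08, under the fold limit with TMM and past it with upper-quartile factors). Inhbb, an inhibin subunit, had 41.1 ± 1.42 CPM in the testis, between 216 ± 12.4 CPM in the IS and 22.7 ± 7.27 CPM in the caput, and transferrin (Trf) had 31.3 ± 4.68 CPM against 284 ± 21.2 CPM and 42.2 ± 10.1 CPM. The lower member of the list was Clu. Rhox5, an androgen-regulated homeobox gene of Sertoli cells, had 17.4, 16.4 and 14.1 CPM in the testis, at most 0.224 CPM in the IS and 5.32, 6.89, 5.63, 4.87 and 5.75 CPM in the caput (log2 4.57, SE 0.20), and was not called against the caput alone (log2 1.48).

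Of 17 Leydig genes 13 were higher and 0 lower (median 6.202). Among them were steps on the route to testosterone. Star, which brings cholesterol into mitochondria, had 163, 90.8 and 105 CPM in the testis (log2 6.20, SE 0.19). Cyp11a1, which cuts its side chain, had 176, 143 and 184 CPM (log2 7.29, SE 0.11). Cyp17a1, which makes the androgen precursor, had 395, 315 and 371 CPM, with 1.13 ± 0.275 CPM in the IS and 13.9 ± 1.81 CPM in the caput (log2 6.51, SE 0.08). Hsd17b3, which makes testosterone itself, had 31.6, 28.9 and 27.6 CPM and 0 counts in the epididymis, at least 908-fold higher. The hormone Insl3 had 35.3 ± 5.51 CPM (log2 7.55, SE 0.18) and Lhcgr, the receptor for luteinising hormone, 7.20 ± 3.27 CPM (log2 5.60, SE 0.49). The Leydig genes Star, Hsd3b1 and Lhcgr varied between the testis samples, and leaving out testis sample 1 or 3 raised the adjusted p of Hsd3b6 to 0.0118 or 0.0159. Scarb1, the lipoprotein receptor that supplies cholesterol, was not called, at 185 ± 6.64 CPM against 167 ± 12.5 CPM and 156 ± 17.4 CPM.

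On the epididymal side all 8 tested lipocalins, small carriers of lipids and retinoids, were lower in the testis, with a median of -9.45. They divided by segment. Lcn8 had 12078, 12831, 12680.0, 13205 and 12246 CPM in the IS, 39.6, 117, 999, 1067 and 185 CPM in the caput and 1.46, 2.78 and 2.19 CPM in the testis (log2 -10.18, SE 1.45). Lcn5 had 105, 59.9, 59.01, 85.3 and 76.8 CPM in the IS, 16125, 12984, 14312, 13306 and 14538 CPM in the caput and 4.91, 5.38 and 5.08 CPM in the testis (log2 -7.68, SE 0.24). Their starts lie 4.83 kb apart on chromosome 2, yet Lcn8 counts were higher in the IS and Lcn5 counts in the caput. Lcn2, an iron-siderophore carrier also made by neutrophils, kept 211 ± 32.5 CPM in the testis against 7373 ± 251 CPM and 2391 ± 696 CPM (log2 -4.31, SE 0.26). Of 28 beta-defensins, antimicrobial peptides that coat sperm, 25 were lower and 1 higher (median -8.10, or -8.05 with the 6 genes at 0 in the testis set to their bound). Defb42 had 1734, 1673, 1543, 1626 and 1704 CPM in the IS and 2007, 2067, 2115, 2140.3 and 2019 CPM in the caput, and under 1 CPM in each testis sample (log2 -11.25, SE 0.11). Defb19 was the exception, with 86.6, 115 and 88.7 CPM in the testis, 1.05 to 1.83 CPM in the IS and 33.1, 41.9, 35.9, 39.5 and 15.96 CPM in the caput (log2 3.89, SE 0.24), and its call held against the IS and not against the caput alone.

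Of 25 protease inhibitors 18 were lower and 1 higher (median -6.195). Spink11, of the Kazal type, was a caput gene, with 5258, 3722, 4250.2, 4019.7 and 4659.9 CPM there, 28.2, 1.79, 4.37, 30.7 and 6.14 CPM in the IS and 0.642 ± 0.203 CPM in the testis (log2 -8.58, SE 1.06). Cst11, a cystatin, was an IS gene with 5108 ± 156 CPM (log2 -10.21, SE 0.72). Cst8, another cystatin, had 252 ± 23.02 CPM in the testis, between 3111 ± 131 CPM in the IS and 143 ± 139 CPM in the caput, and was not called (log2 -1.40, SE 0.74). Spink2, an inhibitor needed in spermatids and also made by the epididymis, had 306, 364 and 350.3 CPM in the testis, 13.9, 5.27, 8.05, 9.17 and 5.08 CPM in the IS and 1141, 1224, 1192, 1203 and 1077 CPM in the caput. It was higher than in the IS (log2 5.37, SE 0.22) and had a difference of -1.78 (SE 0.20) from the caput. Wfdc15a was the member called higher, with 43.9, 59.05 and 51.7 CPM in the testis and 2 counts in the whole epididymis, a ratio of 2369 (95% exact interval 655 to 19578). Of 25 further sperm-coating and luminal proteins 22 were lower and 0 higher (median -8.33). Among them Rnase9 mirrored Rnase10: it had 5692 ± 644 CPM in the caput and 12.8 ± 3.38 CPM in the IS, and 0.649 ± 0.189 CPM in the testis (log2 -8.70, SE 0.28), while Rnase10 had 9389.6 ± 565 CPM in the IS and 672 ± 483 CPM in the caput.

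Growth-factor signalling of the IS, which depends on luminal factors from the testis, had 8 of 14 members lower and 0 higher (median -2.79). All tested genes had 18% lower and 28.4% higher. Against the caput alone 4 of the 14 members were lower. Ros1, the receptor tyrosine kinase that the IS needs to develop, had 2.78, 4.66 and 4.90 CPM in the testis against 510.3 to 594 CPM across the IS and 263 to 298 CPM across the caput (log2 -6.58, SE 0.11). The ETS factors Etv4 and Etv5 and the phosphatase Dusp6, targets of this pathway, were lower through the IS. Etv5 had 579 ± 13.1 CPM in the IS, 37.3 ± 20.9 CPM in the caput and 19.8 ± 1.09 CPM in the testis (log2 -2.88, SE 0.40). The differences of Etv4, Etv5 and Dusp6 from the caput alone were -2.78 (SE 0.86), -0.90 (SE 0.42) and -1.34 (SE 0.31), and none of the 3 was called there. Acid-base transport, which keeps sperm quiescent in an acid lumen, had 9 of 19 members lower (47.4%) and 3 higher (15.8%), beside 18% and 28.4% of all tested genes. Foxi1, the master factor of clear cells, had 141 ± 11.4 CPM in the caput, 28.4 ± 8.06 CPM in the IS and 0.429 ± 0.295 CPM in the testis (log2 -7.13, SE 0.37), and the proton pump subunit Atp6v0d2 differed by -7.31 (SE 0.12). Slc4a4, a bicarbonate cotransporter, differed by -5.07 (SE 0.17). The higher members were Adcy10, the bicarbonate-sensing adenylyl cyclase of sperm (log2 9.65, SE 0.15), carbonic anhydrase Car2 (log2 3.09, SE 0.09) and Rab3b. Against the IS alone Car2 was not called (log2 1.86). Cftr, a chloride and bicarbonate channel, had 56.01 ± 5.98 CPM in the testis, between 176 ± 14.4 CPM in the IS and 12.4 ± 2.01 CPM in the caput.

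Epithelial identity separated the organs: 25 of 26 genes of epithelial junctions, keratins and urogenital factors were lower and 1 higher (median -7.06, or -6.77 with the 1 gene at 0 set to its bound). E-cadherin (Cdh1) had 2.12, 1.70 and 1.66 CPM in the testis, 289 to 296 CPM across the IS and 160.1 to 190.0 CPM across the caput (log2 -6.93, SE 0.09). Keratin 18 (Krt18) differed by -8.50 (SE 0.09), Prom2 of membrane protrusions by -9.96 (SE 0.13) and Pax8, a factor of the Wolffian duct, by -8.59 (SE 0.14). Hoxa10, a patterning gene, had 0 counts in the testis and was at least 63.1-fold lower. Lhx1 was the exception, with 5.05, 5.02 and 3.76 CPM in the testis and at most 1.61 CPM in any epididymal sample (log2 2.99, SE 0.25). Basal cell genes were lower for 8 of 9 (median -5.38), among them keratin 5 (Krt5, log2 -7.80, SE 0.16) and the stem-cell factor Trp63 (log2 -4.79, SE 0.08).

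Genes of supporting cells, which both organs hold, are set beside the 28.4% higher, 18% lower and median of 0.17 over all tested genes. Smooth muscle and myoid genes were lower for 6 of 12 (median -1.83), immune genes for 6 of 18 with 1 higher (median -1.56, 2 lower against the caput alone and 10 lower with upper-quartile factors), and genes of fibroblasts and vessels for 7 of 12 (median -2.13). Smooth muscle myosin (Myh11) had 44.7, 42.8 and 45.9 CPM in the testis, 169 to 179 CPM across the IS and 264 to 309.9 CPM across the caput (log2 -2.33, SE 0.06; against the IS alone log2 -1.96, not called), and actin Acta2 differed by -2.05 (SE 0.07), a call lost with DESeq2 or RLE factors (log2 -1.94 with each) or against the IS alone (log2 -1.74). Actg2, another smooth muscle actin, was highest in the IS (2839 ± 88.4 CPM), with 111 ± 75.4 CPM in the caput and 331 ± 11.9 CPM in the testis. The myeloid integrin Itgam and the antigen-presentation gene Cd74 were lower (log2 -3.33, SE 0.18 and -2.20, SE 0.18), though Cd74 was not called against the caput alone (log2 -1.88), while the mannose receptor Mrc1 of resident macrophages was higher (log2 2.17, SE 0.10). Its call was lost with upper-quartile or library-size scaling or against the IS alone, at log2 values of 1.68, 1.77 and 1.95. Among mesenchymal genes Pdgfra and Col1a1 were lower (log2 -3.21, SE 0.19 and -2.64, SE 0.17). Pdgfra had 494 ± 22.2 CPM in the IS, 84.3 ± 22.1 CPM in the caput and 21.98 ± 0.658 CPM in the testis, and was not called against the caput alone (log2 -1.94). Of the red blood cell genes only 2 could be tested, and 1 was higher. The summed level of that list was 36.4 to 54.7 CPM in the testis and 7.19 to 33.8 CPM in the epididymis, and its part in other results was not tested.

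Of 6 steroid hormone receptors tested, 4 were lower, 0 higher and 2 not called (median -3.13), beside 18% lower and 28.4% higher among all tested genes. At a 16-fold limit 2 were lower. The oestrogen receptors Esr1 and Esr2 differed by -2.31 (SE 0.15) and -4.86 (SE 0.32), and Gpr30, a membrane receptor linked to oestrogen, by -5.93 (SE 0.73). Androgen metabolism had 3 of 12 members higher (25%) and 2 lower (16.7%), shares near the 28.4% and 18% of all tested genes. The testis was higher in Hsd17b3 and in aromatase, Cyp19a1, which turns androgen into oestrogen (8.60 ± 0.928 CPM against at most 0.326 CPM, log2 6.62, SE 0.26). The epididymis was higher in Srd5a2, the reductase that makes dihydrotestosterone, with 91.5, 78.3, 87.3, 89.2 and 107 CPM in the IS, 99.9, 113, 114, 126 and 117 CPM in the caput and 0.366, 0.269 and 0.788 CPM in the testis (log2 -7.72, SE 0.19). Srd5a1, the other reductase, was an IS gene: it had 63.8 ± 5.53 CPM there, 8.43 ± 2.29 CPM in the caput and 7.07 ± 0.764 CPM in the testis, and its difference from the mean of both segments was -1.71 (SE 0.15).

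Transcripts of the germ line were also counted in the epididymis, and the IS and caput share a run. Over all tested genes, 52.1% had a higher mean in the caput than in the IS, 28.1% were higher and 26.8% lower in the caput at an FDR below 0.01, and 4.95% and 3.8% were so past 4-fold as well. The caput mean was above the IS mean for 22 of 22 acrosome genes, of which 10 were higher and 0 lower at that FDR, and 2 were higher past 4-fold. Of the 33 tail genes 26 had the higher mean in the caput, with 17 higher and 4 lower at that FDR, and 11 higher and 1 lower past 4-fold. Of the 13 spermatid chromatin genes 9 had the higher mean in the caput, with 5 higher and 2 lower at that FDR, and 2 higher past 4-fold. Among earlier genes called higher in the testis, the caput mean was the higher one for 13 of 17 piRNA, 16 of 24 meiotic and 6 of 14 spermatogonial genes. Over all tested members, 6 piRNA genes were higher and 4 lower in the caput at that FDR, and 2 and 2 past 4-fold. The numbers were 5 and 4, and 3 and 2, for meiotic genes, and 4 and 4, and 2 and 2, for spermatogonial genes. Odf1 had 43.5, 37.5, 53.2, 45.99 and 51.4 CPM in the caput and 5.14, 2.74, 7.36, 1.44 and 7.38 CPM in the IS, a log2 difference of caput over IS of 3.23 (SE 0.28, edgeR adjusted p = 1.3e-06). Smcp and Prm2 gave 3.17 (SE 0.30) and 2.70 (SE 0.39). Within the IS, samples 3 and 5 carried the most Prm2, Tnp2, Odf1 and Akap4, and caput sample 3 carried the most Prm2. Relative to the testis, levels were taken only over genes called higher, so a low share follows from that choice. Their median IS and caput levels were 0.146 and 0.588% of the testis level for spermatid chromatin, and 0.185 and 0.359% for the tail. They were 0.233 and 0.469% for the piRNA pathway and 0.0499 and 0.266% for spermatogonia. The spermatogonial genes Gfra1, Ret, Kit and Zbtb16 were not called higher and are not part of these medians.

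Other testis-high genes ran the opposite way. Foxj1, the master factor of motile cilia (chosen after its values were seen), had 21.02, 27.5, 26.7, 26.9 and 32.98 CPM in the IS and 1.33, 1.11, 1.08, 0.906 and 1.09 CPM in the caput, a difference of -4.59 (SE 0.16, edgeR adjusted p = 9.2e-17), beside 113, 131 and 134 CPM in the testis. The axoneme genes Spag6 and Tekt1 differed between caput and IS by -2.61 (SE 0.14) and -1.68 (SE 0.22), and Spo11 by -3.09 (SE 0.16). Mns1, counted above with the meiotic genes and also a part of the axoneme, gave -0.46 (SE 0.17) with an adjusted p of 0.019 and was not called. Across the 5 IS samples Spag6 stayed within 5.90 to 7.57 CPM, while Prm2 spread over 3.41 to 21.4 CPM.

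**Figure D5:**
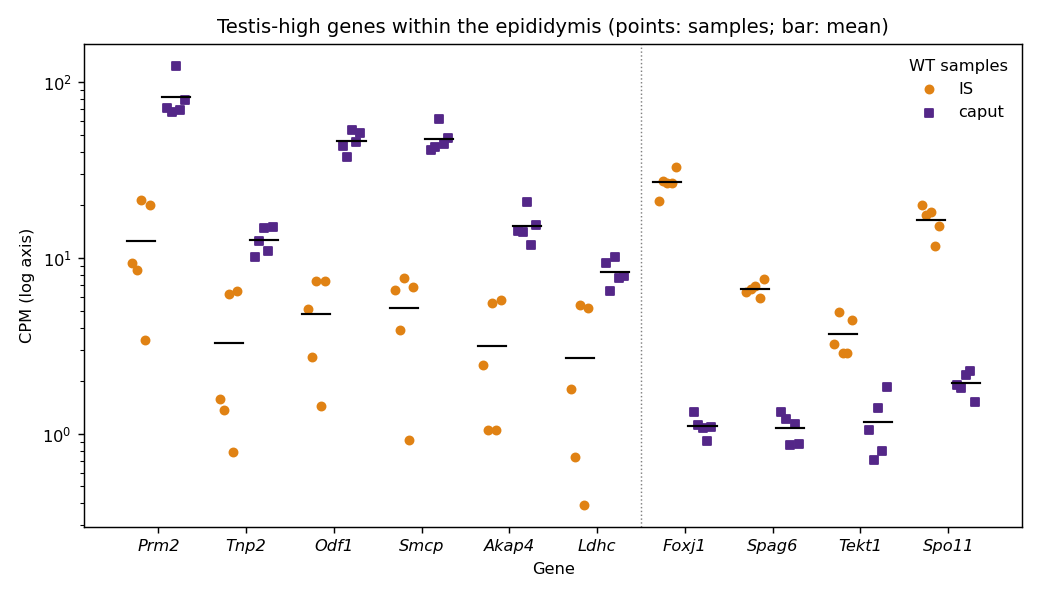
CPM (log axis) of 10 genes that are higher in the testis, in each WT IS sample (orange circles) and WT caput sample (purple squares), with black bars for group means. Left of the dotted line 6 germ-cell genes have the higher mean in the caput, though Ldhc missed the FDR of 0.01 (log2 1.58, edgeR adjusted p = 0.0105). To the right of the line Foxj1, Spag6, Tekt1 and Spo11 are higher in the IS.

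Of 13 genes often taken as references, 1 was higher (7.69%), 3 were lower (23.1%) and 9 were not called (median -0.78), beside 28.4% higher and 18% lower among all tested genes. B2m, the light chain of MHC class I, had 38.96, 33.96 and 34.1 CPM in the testis, 719 to 843 CPM across the IS and 921 to 1107 CPM across the caput (log2 -4.65, SE 0.09). Tbp, the TATA-box binding protein, went the other way with 162, 177 and 177 CPM, 28.5 to 34.7 CPM and 23.4 to 26.9 CPM (log2 2.60, SE 0.05). Actb was not called (log2 0.35, SE 0.06), and its sign depended on the scaling. Ribosomal protein genes were lower for 11 of 31 and higher for 0 (median -1.63), but 17 or 18 were lower with library-size or upper-quartile scaling. Rps3 had 118, 115 and 107 CPM in the testis, 398 to 421 CPM across the IS and 673 to 701 CPM across the caput (log2 -2.22, SE 0.05), and was not called against the IS alone (log2 -1.86). Rpl5 had 2.995 ± 0.222 CPM in the testis, a low level for such a gene, and it has pseudogene copies, so its difference of -3.73 (SE 0.11) is uncertain.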

How the data were processed

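RNA from flash-frozen testis, IS and caput of WT and ArKI mice was sequenced as 50-bp single-end reads. The authors aligned reads to mm10 with STAR and deposited raw counts of uniquely mapped reads per RefSeq gene. The submitters' processing notes name Subread 1.5.1 and bcl2fastq 1.8.4. Sources differ on whether the library kit kept strand, and the strand setting of counting is not given in the sources used here. Per the study's methods the IS and caput came from 5 WT and the testes from 3 WT mice. Both segments may thus share mice, the fit treated them as separate samples, and which samples share a mouse is not given in the sources used here. Replicates differed by more than counting noise (chi-square per degree of freedom 2.43 to 19.5), and none was treated as a duplicate.

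Genes were filtered with filterByExpr (minimum count 10, minimum total 15), scaled by TMM and fitted with edgeR 4.0.16 (R 4.3.3) over the 3 WT groups, with Benjamini-Hochberg adjustment over all tested genes. SE is the estimate divided by the root of F. For genes with few counts in a group, such as Sycp1, it lies below counting error and does not measure the uncertainty of the difference. The alternatives included limma 3.58.1 and DESeq2 1.42.0, and the fit was tested on simulated data. The genes named were the 10 with most counts and the 10 with the largest estimate in each direction, plus members of lists and pairs. The members, lists and pairs were chosen with earlier results of these data known. The values of 1 list member are not reported here.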

Additional observations from a re-analysis of the deposited data

Results flagged for a closer look

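The log2 difference of testis minus epididymis itself differed between ArKI and WT mice at an FDR below 0.01 in edgeR's interaction test for 36 of the 162 genes examined, where 6.93% of all tested genes did. Over all genes the replicate block lowered such calls from 804 to 516 in the positive and from 365 to 215 in the negative direction. For 32 of the 36 the difference was more positive in ArKI. Sperm-head, tail and surface genes were among them, with ArKI minus WT values of 3.90 for Prm1, 3.76 for Prm2, 4.55 for Tnp1, 3.75 for Tnp2, 1.86 for Odf1, 1.99 for Smcp, 4.68 for Akap4, 2.12 for Dnahc8, 3.63 for Adam2, 1.95 for Adam3, 2.52 for Crisp2, 3.04 for Atp8b3, 1.90 for Fhl4 and 1.91 for Tcp11. Other genes of germ cells gave 3.52 for Ldhc, 3.40 for Gapdhs, 3.46 for Pgk2, 3.44 for Pdha2, 2.43 for Gykl1, 3.998 for Ppp3r2, 2.29 for Clgn, 1.82 for Tuba3a, 4.04 for Piwil1, 3.32 for Mael and 1.17 for Ddx4. Values of genes at or near 0 CPM in an ArKI group are uncertain in size, among them Piwil1 and Pdha2 with 0 CPM in the ArKI IS. The mean Prm2 level was 7323 CPM in the ArKI testis, 0.759 CPM in the ArKI IS and 9.13 CPM in the ArKI caput, beside 6811, 12.5 and 82.4 CPM in WT. For this gene the genotype means lay closer in the testis than in the IS or caput. Other genes with a more positive difference gave 5.29 for Rhox5, 2.48 for Lcn2, 2.36 for Defb19, 2.19 for Spink2, 1.87 for Cyp11a1, 0.488 for Pdha1 and 0.410 for Itm2b. The Rhox5 value is uncertain in size, since no WT IS sample had more than 2 counts of that gene. The genes with a more negative difference in ArKI gave -1.05 for Zbtb16, -0.926 for Wt1, -0.796 for Car2 and -0.590 for Sox9.

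In 300 groups of 5 samples, 17 had a sample far from the rest by Dixon's criterion at the 95% level, a number near the 1 in 20 that chance gives. Groups with counts in 1 sample alone always meet the criterion, so the comparison with 1 in 20 is rough. Spermatid and germ-cell genes stood out in caput sample 3 for Prm2 (124 CPM, against 67.98 to 78.9 CPM in the others), caput sample 3 for Pgk2 (12.99 CPM, against 7.19 to 8.58 CPM in the others) and caput sample 3 for Atp8b3 (19.05 CPM, against 9.86 to 12.2 CPM in the others). Among genes lower in the testis the samples were caput sample 2 for Gyk (136 CPM, against 156 to 161 CPM in the others), IS sample 5 for Crisp1 (1258 CPM, against 1924 to 2175 CPM in the others), IS sample 4 for Cst11 (5381 CPM, against 4992 to 5072 CPM in the others), IS sample 4 for Hoxa10 (5.90 CPM, against 8.28 to 9.17 CPM in the others) and IS sample 1 for 5830403L16Rik (5146 CPM, against 5585 to 5748 CPM in the others). The others were caput sample 2 for Kit (32.8 CPM, against 28.5 to 29.6 CPM in the others), caput sample 5 for Lhx1 (0.651 CPM, against 0.285 to 0.340 CPM in the others), IS sample 3 for Akap12 (51.8 CPM, against 21.4 to 26.9 CPM in the others) and IS sample 1 for Lhcgr (0.894 CPM, against 0 to 0.105 CPM in the others). The group had counts in 1 sample alone, namely IS sample 2 for Rpl10l (0.105 CPM, against 0 in each of the others), IS sample 5 for Hsd3b1 (0.0959 CPM, against 0 in each of the others), IS sample 3 for Cyp19a1 (0.115 CPM, against 0 in each of the others), caput sample 1 for Serpina5 (0.0950 CPM, against 0 in each of the others) and caput sample 1 for 1700006A11Rik (0.285 CPM, against 0 in each of the others). The 3 testis samples are too few for this criterion.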

How the results depend on the processing

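Calls were made under other scalings, filters, tools and limits and with each sample left out in turn. Of 968 counts, 939 stayed within 1.5 times, and of 3888 gene values 3792 kept direction and side of the threshold. With a fold limit of 2, 5101 genes were lower. With a limit of 16, 2959 were higher and 879 lower, and without a limit 7907 and 6883. Within lists, the number lower at limits of 2 and 16 and without a limit was 12, 0 and 13 for immune cells, 21, 0 and 27 for ribosomal proteins and 6, 1 and 8 for reference genes. At a limit of 16 and without a limit it was 0 and 11 for smooth muscle and for fibroblasts and vessels. At 16 it was 3 for initial segment signalling and 2 for steroid receptors, and 0 red blood cell genes were higher. Upper-quartile factors gave 10 lower immune and 18 lower ribosomal genes, and library size alone 17 ribosomal genes. Against the caput alone 4 signalling and 2 immune genes were lower, and against the IS alone 6 ribosomal genes.

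With single samples left out, 4552 to 4701 genes were higher, 2927 to 3097 lower, and 594 to 828 and 254 to 403 had a more positive or more negative tissue difference in ArKI. Replicate numbers are shared between groups. Same-numbered IS and caput samples had r of -0.00041 to 0.185, over 0.1 in 3 of 5 pairs, against -0.113 to 0.114 for other numbers, and all pairs with the testis were under 0.1. Both segments came from the same number of mice, but whether a number marks 1 mouse is not given in the sources used here, so the pairing is not settled. A replicate block gave 4650 higher and 2959 lower genes, and 516 and 215 interactions in place of 804 and 365.

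Signs turned for 12 genes. With upper-quartile factors the log2 difference was -0.13 for Kit, -0.47 for Zbtb16, -0.077 for Prdm9, -0.30 for Scarb1, -0.23 for Cftr and -0.14 for Actb, and with library size alone -0.038 for Kit, -0.38 for Zbtb16, -0.21 for Scarb1, -0.14 for Cftr and -0.047 for Actb. Against the caput alone it was -1.06 for Ace, 0.86 for Inhbb, -1.78 for Spink2, 0.82 for Cst8 and 1.58 for Actg2, and against the IS alone -1.65 for Cftr, 0.29 for Clu and -0.080 for Zbtb16. Zbtb16 also gave -0.11 without the count filter, -0.068 in a fit of all 26 samples, -0.060 without caput samples 3 and 4, and -0.071 to 0.047 with single samples left out, below 0 for IS sample 1, caput samples 1, 3, 4 and 5 and testis sample 1. The cause was not tested. Depth limits the genes at 0 counts. For genes at 0 in a whole tissue only bounds of the fold are given. Log2 values of genes at 0 in a single group, such as Tex101 in the IS, are uncertain in size.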
